A study of Mus musculus with 19 samples.

Results

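Dissociation of brain tissue into single cells was compared between a conventional procedure and Act-Seq in tissue from the medial amygdala, a forebrain region that handles social and threat cues, of C57BL/6J male mice. Cells were profiled by Drop-seq, in which each cell shares a droplet with a barcoded bead and transcripts are counted by their unique molecular identifiers (UMIs). The comparison used the 5 libraries of the deposited dissociation table, whose cell names give the library: 2 conventional libraries and 3 Act-Seq libraries, of 19 libraries in all. They held 8071 of the 25850 cells of the series. The conventional libraries came from saline-injected mice (1 library, 8 weeks) and from mice after seizure (1 library, 8 weeks). The Act-Seq libraries came from saline-injected mice (1 library, 8 weeks) and from mice after seizure (seizure 1 at 9 weeks and seizure 2 at 8 weeks). Act-Seq libraries of naive mice (8 weeks) are outside this comparison and are used only where named. All mice were kept on a reversed light cycle, and no allele or agent other than the injection and the seizure is named in the labels, which do not say how the seizures were induced. The conventional method thus has 1 library for each treatment. Whether libraries stand for separate animals is not stated, so a p-value speaks only of these libraries, and their spread may be technical. In the tests of genes by edgeR, the spread of each gene is also drawn toward one common to all genes. A gene alone has 2 residual degrees of freedom, or 1 with the interaction. Very small p-values therefore do not measure the spread of that gene between libraries. Values of the Act-Seq libraries are given below in the order saline, seizure 1 and seizure 2, and those of the conventional libraries in the order saline and seizure.

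Brain cells are freed with proteases and shear, and living cells go on transcribing while this lasts. Immediate early genes are switched on within minutes by calcium, stress or mitogen signals without new protein synthesis. Many of them encode transcription factors of the Fos, Jun and Egr families, and feedback genes such as Dusp1 and Zfp36, which shorten the signal, follow them. Act-Seq as published adds actinomycin D, an inhibitor of RNA synthesis, during dissociation, whereas the labels name only the method. Microglia, the macrophages of brain tissue, respond to injury signals with the same genes and with chemokines, which attract other immune cells.

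The table held 15299 genes and 16872067 UMIs, and no mitochondrially encoded gene. The libraries held 2010, 1777 and 1123 cells under Act-Seq and 1880 and 1281 under the conventional procedure, with 2102364 to 4309887 UMIs each. Every cell had at least 551 genes, so the shares of cells and the medians per cell below leave out smaller cells. Cells were grouped by clustering without the immediate early genes and other lists of response genes, and each class name stands for clusters that carry the markers of that cell type (microglia-like, astrocyte-like and so on). The authors' classes come from a larger table, in which 0 of the 2900 seizure Act-Seq cells had the same barcode name. These cells were therefore matched by their counts (cosine over 0.99). Of the cells of the seizure Act-Seq libraries placed in the 7 named classes compared here, 1584 of 1605 (98.7%) had the same class from the authors. This leaves out the 1013 cells of a cluster led by Kif5a and the 104 of one led by Ddn, which carry no name here and of which the authors called 970 and 103 neurons. Also left out are unnamed clusters led by Myoc (101 cells), Trbc2 (25) and Ndnf (14). So are newly formed oligodendrocytes (29 cells), perivascular macrophages (8) and dividing cells (1). The name perivascular macrophages is tentative, since Dcn, Igfbp2 and Igf2 lead that cluster ahead of Pf4 and Mrc1. The authors called 6 of its 8 cells mural and 2 microglia. The authors called 98 of the Myoc-led cells astrocytes and 13 of the Ndnf-led cells neurons. A total of 1115 barcode names occurred both in the saline conventional and in the seizure 1 Act-Seq library, and 1 in the saline and seizure 2 Act-Seq libraries. The cells behind shared names had a mean cosine of 0.2307 between their counts, against 0.2298 over all pairs of the same libraries.

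Neurons as named here, without the Kif5a-led and Ddn-led clusters, made up a larger share of cells in the conventional libraries. These neurons, marked by Snap25, Syt1 and Meg3, made up 1.44%, 2.14% and 2.05% of cells in the Act-Seq libraries and 25.7% and 20.5% in the conventional ones. The exact 95% binomial intervals reached from 0.968% to 3.06% over the Act-Seq libraries and from 18.3% to 27.7% over the conventional ones, and covered counting error only. The conventional libraries thus lay above all Act-Seq libraries, with 483 and 263 such neurons against 29, 38 and 23. Under Act-Seq this class holds few of the authors' neurons. Their neuron table held 363 of 1777 cells of seizure 1 and 140 of 1123 of seizure 2. Of these, 7, 0 and 13 lay in the clusters named neurons here (led by Penk, Vsnl1 and Miat). The Kif5a-led, Ddn-led and Aldoc-led clusters, the last named astrocytes here, held 374, 72 and 24 of them. Oligodendrocyte precursors, the dividing glia that form new myelinating cells, made up 4.18%, 6.02% and 6.32% of cells against 14.8% and 13.6%. Oligodendrocytes, which wrap axons in myelin, made up 8.71%, 7.03% and 10.2% against 15.9% and 18.0%. Endothelial cells of the vessel wall made up 5.02%, 4.50% and 4.72% against 5.96% and 6.56%. In these 4 classes both conventional libraries lay above all 3 Act-Seq libraries, but at the finer Leiden resolution of 1.5 the endothelial difference went from 1.51 to 0.531 percentage points (exact permutation p = 0.3). The two-sided exact permutation test of 2 against 3 libraries gave p = 0.1 for each (0.167 after Benjamini-Hochberg adjustment), and 0.1 is the smallest p that its 10 arrangements can give.

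Microglia, the resident macrophages, made up 9.65%, 8.55% and 10.1% of cells against 9.57% and 10.1%, a mean difference of 0.400 percentage points (exact permutation p = 0.8, adjusted 0.857). The shares of the 2 methods overlapped. Astrocytes, the glia that clear glutamate and potassium, made up 25.8%, 21.8% and 27.9% against 21.6% and 19.8%, a mean difference of -4.40 percentage points (exact permutation p = 0.2, adjusted 0.3). With cells assigned to classes one by one, this difference was -34.6 points (exact permutation p = 0.1). The Myoc-led cluster, in which Gfap also leads and which the authors called astrocytes in 98 of 101 cells, is not counted here. It made up 3.48%, 3.43% and 3.56% against 1.17% and 2.73%, lower in both conventional libraries (exact permutation p = 0.1, adjusted 0.167). Mural cells, here a cluster led by vascular smooth muscle genes such as Acta2, made up 2.19%, 0.844% and 1.16% against 1.06% and 1.48% (exact permutation p = 0.9, adjusted 0.9). Dividing cells numbered 4, 1 and 0 against 8 and 9. Shares of one table sum to the whole, so a higher share of one class lowers the others by construction.

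Clusters that the conventional libraries nearly lacked enter these shares. A cluster led by Kif5a, the heavy chain of the neuronal motor protein kinesin, held 702, 665 and 348 cells under Act-Seq (34.9%, 37.4% and 31.0%) and 14 and 35 cells under the conventional procedure (0.745% and 2.73%). Its RNA held markers of several types: over the 1715 Act-Seq cells the summed level was 20513 CPM (a gene's UMIs scaled to the UMIs of that class in the library) for the 10 astrocyte markers, 4426 for the 14 neuron markers, 4408 for the oligodendrocyte markers and 782 for the microglia markers. Malat1, a long noncoding RNA kept in the nucleus, stood at 691, 1550 and 1281 CPM in this cluster and at 13173, 18213 and 27752 in the astrocytes of the same libraries. The authors' own class was neuron for 970 of the 1013 cells of this cluster with such a class, and 374 of them were in the authors' neuron table. The cluster was left without a cell type name. Kif5a itself also differed between the methods within astrocytes, microglia and oligodendrocytes, so the size of the cluster and the level of its genes cannot be told apart. Genes that lead the neuron clusters, such as Penk, likewise differed between the methods.

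A cluster led by Ddn, whose mRNA lies in dendrites, held 11, 99 and 5 cells against 2 and 1. With the Kif5a-led and Ddn-led clusters counted as neurons, an alternative chosen after seeing the data, neurons made up 36.9%, 45.1% and 33.5% of cells under Act-Seq and 26.5% and 23.3% under the conventional procedure, so the order of the methods turned. With the Kif5a-led cells left out of the total, also chosen after seeing the data, neurons made up 2.22%, 3.42% and 2.97% against 25.9% and 21.1%, and precursors 6.42%, 9.62% and 9.16% against 15% and 14.0%. Microglia then made up 14.8%, 13.7% and 14.6% against 9.65% and 10.4%, and astrocytes 39.6%, 34.8% and 40.4% against 21.8% and 20.4%. Endothelial cells made up 7.72%, 7.19% and 6.84% against 6.00% and 6.74%, so their order turned. These last 3 classes then lay lower in the conventional libraries without overlap. The difference in oligodendrocytes went from 8.28 to 4.10 percentage points (exact permutation p = 0.2).

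**Figure D1:**
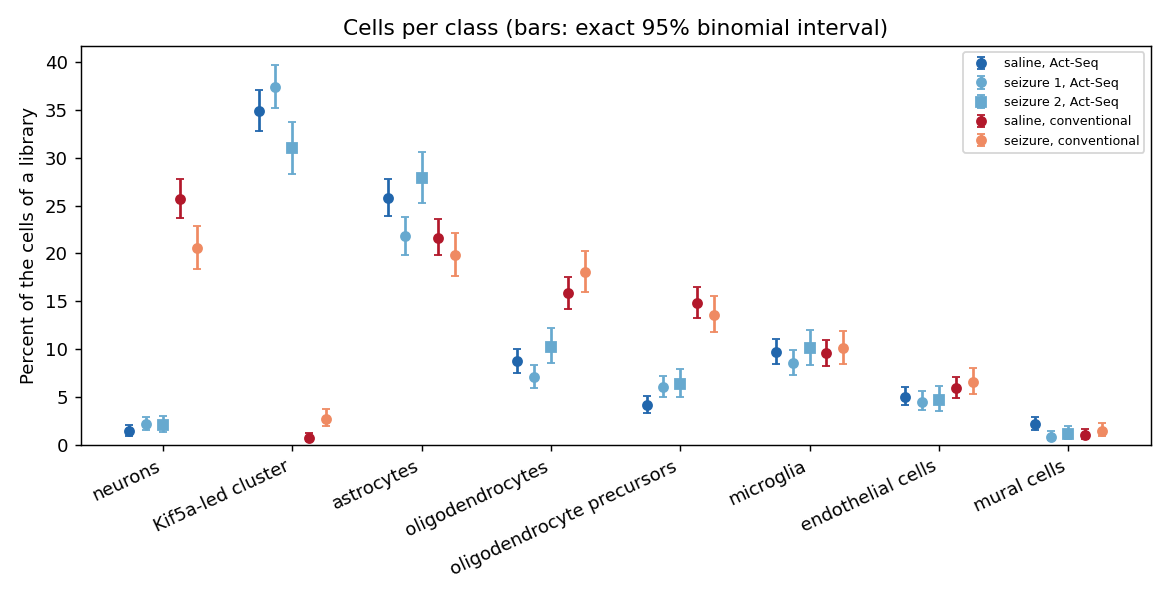
Share of the cells of each library (percent, y axis) in 7 cell classes and the Kif5a-led cluster, with 1 point for each of the 5 libraries and exact 95% binomial intervals as bars. Neurons stood at 1.44% to 2.14% in the Act-Seq libraries and at 25.7% and 20.5% in the conventional ones, whereas the Kif5a-led cluster stood at 31.0% to 37.4% and at 0.745% and 2.73%.

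The median depth overlapped between the methods. It was 1547, 1387 and 1420 UMIs per cell under Act-Seq and 1496 and 1661 under the conventional procedure (exact permutation p = 0.3), and 962.5, 865 and 875 genes against 893 and 971 (exact permutation p = 0.5). With each cell thinned to 600 UMIs, the median was 452, 449 and 446 genes against 439 and 433, so both conventional libraries lay below (exact permutation p = 0.1). Neurons had medians of 1317, 1289.5 and 1260 under Act-Seq and 2109 and 1756 under the conventional procedure. The neurons of the 2 methods lay in different clusters, and within the cluster led by Penk, which both share, the medians overlapped, at 1363, 1713 and 1588 against 1573 and 1618, whereas the cluster led by Vsnl1 had 4552 and 5038 in the conventional libraries and held 11, 1 and 0 Act-Seq cells.

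Differences in RNA over all cells were tested on the UMIs summed per library with edgeR's quasi-likelihood test, with terms for treatment and method and Benjamini-Hochberg adjustment over all genes tested. Levels are CPM of the summed library, and log2 differences are conventional minus Act-Seq with the standard error (SE) of the fit over 2 and 3 libraries. CPM here and below, and the order of libraries in them, lack the scaling between libraries (TMM) that the log2 differences include. Of 13607 genes tested, 2286 differed (16.8%), 1137 higher in the conventional libraries (8.36%) and 1149 lower (8.44%). Sums over all cells cannot tell fewer cells of a type from less RNA per cell. The count was 992 without the saline Act-Seq library, 759 without the saline conventional library and 1164 without the seizure conventional library.

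Penk, the precursor of the opioid peptide enkephalin, stood at 24.3, 28.6 and 22.4 CPM under Act-Seq and at 357 and 340 under the conventional procedure (log2 3.74 ± 0.17 SE, edgeR adjusted p = 6e-05). Syt1, the calcium sensor of synaptic vesicles, stood at 149, 201 and 137 against 1036 and 722 (2.35 ± 0.23, adjusted p = 0.00039). Both genes of neurons lay higher in each conventional library, as did 28.1% of all genes tested; 20.5% lay lower in both. Other mRNAs of neurons went the opposite way. Kif5a stood at 1524, 1783 and 1632 against 151 and 185 (-3.31 ± 0.18, adjusted p = 0.0001), and Camk2a, a synaptic kinase whose mRNA is carried into dendrites, at 551, 828 and 442 against 112 and 98.6 (-2.57 ± 0.29, adjusted p = 0.00067). Of 16 dendritic and synaptic mRNAs, 9 were lower in the conventional libraries, with Map2, Ddn and Shank1 among them, and 3 were higher (Snap25, Syp and Syt1), with a median log2 difference of -1.31 against 0.01 over all genes tested. Without the seizure conventional library 4 were lower.

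Of 36 nuclear genes for oxidative phosphorylation, 15 were lower and 0 higher in the conventional libraries, with a median of -0.54, but 4, 1, 9 and 1 were lower without the saline Act-Seq, saline conventional, seizure 2 and seizure conventional libraries. Cox8a, a subunit of cytochrome oxidase, stood at 1507, 1750 and 1441 CPM against 680 and 675 (-1.25 ± 0.18, adjusted p = 0.002). Of 4 tested haemoglobin genes, 3 were higher, with Hbb-bs at 24.3, 333 and 32.8 against 738 and 735 (3.17 ± 0.91, adjusted p = 0.043). Haemoglobin marks red blood cells, its gene copies are nearly identical so that their reads may be split between them, and the seizure 1 library stood apart from the other Act-Seq libraries in it. Hbb-bs lost its call without the saline Act-Seq, the saline conventional or the seizure 2 library. The metallothioneins Mt1 and Mt2, which bind zinc, were lower over all cells: Mt1 stood at 5326, 6760 and 6762 against 2348 and 3486 (-1.10 ± 0.18, adjusted p = 0.0036).

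Of 25 immediate early factors tested in the summed libraries, 15 were higher and 0 lower, with a median log2 difference of 1.55. Fos, a subunit of the factor AP-1, stood at 10.4, 169 and 235 CPM against 1770 and 1138 (4.43 ± 0.95, adjusted p = 0.013). Of 23 chemokines and cytokines tested, 13 were higher and 2 lower, with a median of 1.96, and 8 were higher without the saline conventional library. Ccl3, a chemokine of activated macrophages, stood at 1.65, 0.895 and 3.33 against 173 and 88.5 (6.04 ± 0.34, adjusted p = 0.0001). Both conventional libraries lay above all Act-Seq libraries for Fos and Ccl3, and for 17 of the 25 early factors.

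In microglia, whose share of cells overlapped between the methods, immediate early, feedback and chemokine genes were higher in the conventional libraries. The cells numbered 194, 152 and 113 under Act-Seq and 180 and 129 under the conventional procedure. Of 4644 genes tested in microglia, 154 differed (3.32%), of which 138 were higher in the conventional libraries (2.97%) and 16 lower (0.345%). The count was 98 without the saline Act-Seq library and 92 without the saline conventional library, and 75 with DESeq2. All 10 microglia markers were present in each library, with a summed level of 57709 to 64226 CPM under Act-Seq and of 47455 and 51834 under the conventional procedure.

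Of 25 immediate early factors in the table, 19 passed the filter on low counts in microglia, and 18 of these were higher in the conventional libraries and 0 lower, with a median log2 difference of 4.18 against -0.01 over all genes tested. A gene that passes this filter only through the libraries where it is high had to differ, so these counts describe the list and are no test of it. The same holds for the counts of list members in the other classes below. The count of higher factors was 15 with DESeq2 and 16 to 18 with any 1 library left out. In 18 of the 19 both conventional libraries lay above all 3 Act-Seq ones, as they did for 9.58% of all genes tested. The summed level of the list was 1312, 1437 and 1912 CPM under Act-Seq and 42133 and 33660 under the conventional procedure.

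Fos stood at 13.2, 10.3 and 7.06 CPM in Act-Seq microglia and at 4843 and 3923 in conventional ones (log2 8.72 ± 0.27, edgeR adjusted p = 4.6e-23). Egr1, a zinc finger factor induced through the same growth factor signals, stood at 3.31, 35.9 and 42.3 against 7913 and 6975 (8.5 ± 0.29, adjusted p = 5.6e-22). For both genes every conventional value was far above every Act-Seq value. Jun, the partner of Fos in AP-1, stood at 188, 108 and 268 against 8079 and 6909 (5.48 ± 0.21, adjusted p = 1.6e-20). Its relatives Junb (258, 246 and 310 against 4267 and 3737) and Jund (102, 195 and 141 against 1308 and 1079) differed by 4.03 ± 0.19 (adjusted p = 1.8e-18) and 3.23 ± 0.24 (adjusted p = 1.1e-12). The Jun family was thus detected under both methods, whereas Fos and its relative Fosb were near the floor under Act-Seq.

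Fosb had 1 UMI in all Act-Seq microglia and 437 in the conventional ones, a ratio of levels of 603 with a 95% counting interval from 108 to 23860. Egr2 had 3 UMIs against 221, a ratio of 102 (34.3 to 496). These ratios rest on few Act-Seq counts, and their intervals cover counting error only. Ier2, a nuclear factor of the early response, stood at 6.61, 25.7 and 56.4 against 2829 and 2477 (6.91 ± 0.30, adjusted p = 9e-19). Btg2, which blocks division and shortens mRNA tails, stood at 122, 287 and 346 against 3599 and 2753 (3.98 ± 0.25, adjusted p = 8.7e-15). Atf3, a stress-induced factor, stood at 29.7, 35.9 and 49.4 against 1580 and 490, and Nr4a1, an orphan nuclear receptor, at 6.61, 51.3 and 49.4 against 628 and 233. The conventional libraries lay above all Act-Seq libraries for each of these factors, and the saline library was the higher conventional one. In 5 naive Act-Seq libraries of the larger table with at least 10 microglia by the authors' class, Fos had 0 UMIs in every one. Egr1 reached at most 14.3 CPM there and Jun 164 to 382.

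**Figure D2:**
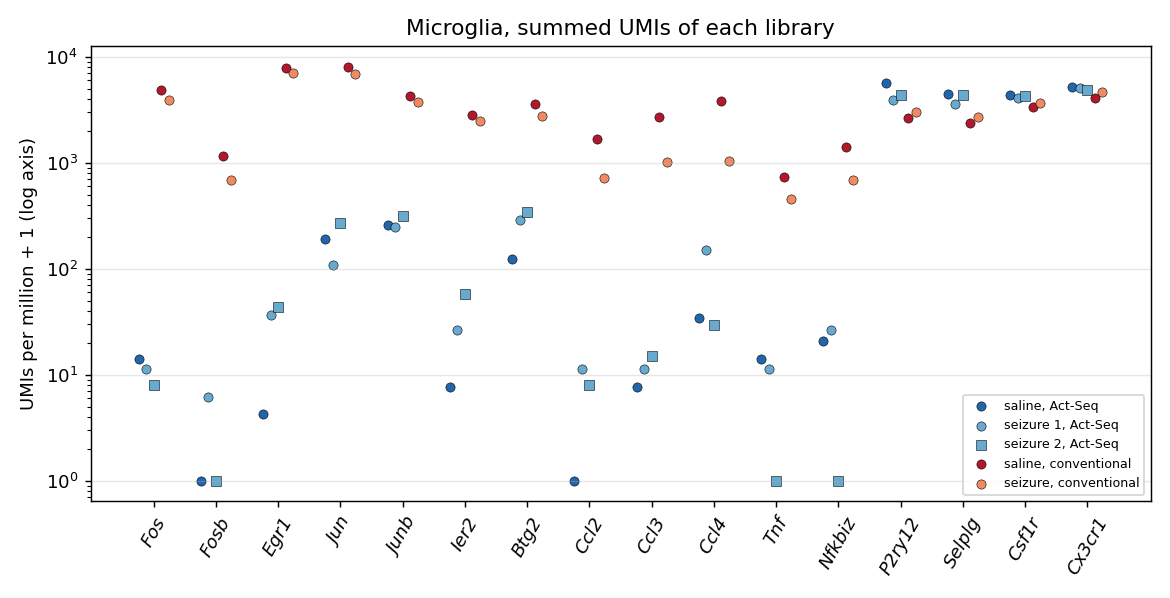
Level of 16 genes in microglia, in CPM of the microglial UMIs plus 1 (log axis), with 1 point for each of the 5 libraries. Immediate early factors, chemokines and Nfkbiz stood higher in both conventional libraries than in the 3 Act-Seq libraries, whereas the resident gene P2ry12 stood at 3889 to 5715 under Act-Seq and at 2671 and 3010 under the conventional procedure.

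Genes that end the early response were higher as well. Of 29 feedback genes in the table, 19 passed the filter and 15 were higher in conventional microglia, with 0 lower and a median log2 difference of 2.16 (11 with DESeq2, 12 to 17 with any 1 library left out). Zfp36, which marks inflammatory mRNAs for decay, stood at 175, 92.4 and 162 CPM against 3729 and 2530 (4.53 ± 0.21, adjusted p = 1.8e-18). Dusp1, a phosphatase that switches off MAP kinases, stood at 6.61, 77.0 and 113 against 1146 and 1702 (5.0 ± 0.30, adjusted p = 4.8e-15). Both were higher in each conventional library. Ppp1r15a, which restarts translation after stress, stood at 16.5, 35.9 and 42.3 against 1233 and 823 (5.26 ± 0.31, adjusted p = 1.5e-15). Genes of the IkappaB family, which bind NF-kappaB, were among those higher: Nfkbia, which holds NF-kappaB in the cytoplasm, stood at 264, 1062 and 1298 against 6388 and 5568 (3.36 ± 0.28, adjusted p = 1.9e-11), and Nfkbiz at 19.8, 25.7 and 0 against 1406 and 685 (6.00 ± 0.34, adjusted p = 6.9e-16).

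The promoters of 4 of these early and feedback genes, chosen after the motif search, are shown because each holds, in the 250 bases before its start, an element through which calcium, cAMP or growth factor signals reach immediate early genes. All 4 lie on the minus strand, with sequences and coordinates from RefSeq on GRCm38.p6: Btg2 at chr1:134079156-134079405, Dusp1 at chr17:26508473-26508722, Ppp1r15a at chr7:45526269-45526518 and Zfp36 at chr7:28379229-28379478. Capitals mark the cAMP response element TGACGTCA in the first 3, which lay 159 to 166, 136 to 143 and 5 to 12 bases before the start, and the serum response (CArG) element CCATAAAAGG, 49 to 58 bases before the start, in Zfp36.
Btg2: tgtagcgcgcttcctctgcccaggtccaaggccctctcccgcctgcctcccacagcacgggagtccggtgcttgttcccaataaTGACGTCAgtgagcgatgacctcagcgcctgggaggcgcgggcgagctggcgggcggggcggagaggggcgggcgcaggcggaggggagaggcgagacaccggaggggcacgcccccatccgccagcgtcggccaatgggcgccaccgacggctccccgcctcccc
Dusp1: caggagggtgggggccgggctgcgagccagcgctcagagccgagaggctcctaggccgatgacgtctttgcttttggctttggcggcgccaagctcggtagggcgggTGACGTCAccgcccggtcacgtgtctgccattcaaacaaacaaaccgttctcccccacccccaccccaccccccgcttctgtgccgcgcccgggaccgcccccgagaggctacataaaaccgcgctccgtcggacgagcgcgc
Ppp1r15a: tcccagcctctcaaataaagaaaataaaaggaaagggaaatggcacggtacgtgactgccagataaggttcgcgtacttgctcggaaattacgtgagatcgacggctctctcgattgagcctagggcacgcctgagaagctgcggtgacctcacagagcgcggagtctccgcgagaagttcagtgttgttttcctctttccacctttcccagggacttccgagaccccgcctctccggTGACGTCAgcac
Zfp36: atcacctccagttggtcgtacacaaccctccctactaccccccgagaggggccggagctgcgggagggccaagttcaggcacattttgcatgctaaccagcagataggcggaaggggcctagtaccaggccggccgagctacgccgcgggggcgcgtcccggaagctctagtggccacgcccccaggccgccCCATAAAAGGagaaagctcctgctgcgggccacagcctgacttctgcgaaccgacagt
Searched on both strands, the cAMP response element was found in at least 1 promoter window of this length for 478 of all 27025 genes (1.77%), for 128 of 3577 genes tested in microglia (3.58%) and for 8 of 107 genes higher in conventional microglia (7.48%). The serum response element was found for 1.62% of all genes, 1.48% of those tested and 6 of 107 (5.61%), and the AP-1 element TGACTCA for 5.16%, 3.41% and 6 of 107 (5.61%). Genes without a promoter window in the source, Fos among them, are left out. The shares thus cover 3577 of the 4644 genes tested in microglia and 107 of the 138 higher ones. A match describes letters in a window and does not show that a factor was bound there.

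Chemokines and cytokines made up 1557, 1816 and 1566 CPM under Act-Seq and 13523 and 6096 under the conventional procedure. Of 25 such genes in the table, 15 passed the filter and 9 were higher in conventional microglia, with 0 lower and a median log2 difference of 2.32. The count was 7 with DESeq2 and 6 without the saline conventional library, and 11 of 18 without the seizure conventional library. Ccl3 stood at 6.61, 10.3 and 14.1 against 2690 and 1008 (7.61 ± 0.34, adjusted p = 1.1e-18), and Ccl4, its neighbour on chromosome 11, at 33.1, 149 and 28.2 against 3820 and 1037 (5.0 ± 0.40, adjusted p = 6.4e-12). Both chemokines were highest in the saline conventional library. Ccl2, which recruits monocytes, had 3 UMIs in Act-Seq microglia and 578 in conventional ones, a ratio of levels of 266 (90.5 to 1292). Tnf, an inflammatory cytokine, stood at 13.2, 10.3 and 0 against 731 and 452 (6.04 ± 0.38, adjusted p = 1.2e-14). Il1b, another such cytokine, had 2 UMIs against 97, a ratio of 66.9 (18.0 to 560). Cd83, a marker of activated antigen-presenting cells, stood at 142, 66.7 and 162 against 636 and 157 (1.62 ± 0.32, adjusted p = 0.0008), so its values overlapped between the methods. Cd83 lost its call without the saline Act-Seq or the saline conventional library, and Il1b without the saline Act-Seq library.

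On the mm10 build, to which the submitters' processing notes refer, Ccl3 lies at chr11:83647844-83649355 and Ccl4 at chr11:83662584-83664683, on opposite strands, and Ccl2 at chr11:82035571-82037453. Fos lies at chr12:85473890-85477273 and Tnf at chr17:35199381-35202007. The genes higher in conventional microglia had a median span in the annotation (GENCODE vM21) of 8.91 kb with 5 exons, against 23.9 kb and 9 exons over all genes tested, and 44.0% against 17.7% had at most 4 exons. In oligodendrocytes the genes higher in the conventional libraries had a median span of 3.95 kb and 3 exons, and 69.6% had at most 4 exons against 17.6% of those tested. The genes higher in conventional astrocytes had a longer median span than those tested, 29.8 kb against 25.5 kb, as did those higher in the summed libraries, 35.7 kb against 24.7 kb. Those of astrocytes still had fewer exons, with a median of 7 against 9, and 36.6% against 18.0% had at most 4. The genes lower in conventional astrocytes had a median span of 14.0 kb and 6 exons, and 29.7% had at most 4.

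Of 20 homeostatic genes, which mark resident microglia at rest, 0 were higher and 2 lower in the conventional libraries, with a median log2 difference of -0.31. In 16 of the 20 both conventional libraries lay below all 3 Act-Seq libraries, as they did for 21.3% of all genes tested. This order is read from CPM without the TMM scaling, so a gene such as Csf1r can lie below with a small fitted difference. P2ry12, the purine receptor that steers microglial processes, stood at 5715, 3889 and 4347 CPM against 2671 and 3010 (-0.58 ± 0.16, adjusted p = 0.027). Selplg, an adhesion ligand, stood at 4459, 3607 and 4332 against 2382 and 2677 (-0.56 ± 0.16, adjusted p = 0.032). These 2 genes were lower without overlap, but they also lead the cluster that defines the class, so their values are a description, and 0 of the list passed with DESeq2, without the saline Act-Seq, the saline conventional or the seizure 1 library, and 3 passed without the seizure conventional library. The fractalkine receptor Cx3cr1 stood at 5216, 5033 and 4840 against 4097 and 4679 (-0.05 ± 0.14, adjusted p = 0.95), and the growth factor receptor Csf1r at 4402, 4110 and 4269 against 3330 and 3671 (-0.13 ± 0.15, adjusted p = 0.79).

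Of 15 heat shock genes tested, 4 were higher (Dnajb1, Dnajb4, Hsp90aa1 and Hspa1a), and of 14 genes of the unfolded protein and amino acid response 5 were higher (Atf4, Ddit3, Dnajb9, Herpud1 and Sqstm1), with median log2 differences of 0.41 and 0.15. Hspa1a, the inducible heat shock protein, had 2 UMIs in Act-Seq microglia and 86 in conventional ones, a ratio of 59.3 (15.9 to 498), and its near-identical copy Hspa1b may share its reads. Of 34 genes for oxidative phosphorylation tested, 0 differed in microglia (median -0.09). Malat1 stood at 5615, 11410 and 15269 against 22471 and 14388 (1.11 ± 0.23, adjusted p = 0.0016), with values that overlapped, and it lost its call without the saline Act-Seq or the saline conventional library, as Hsp90aa1 and Herpud1 did. Without the seizure conventional library Atf4 and Ddit3 lost theirs.

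The 16 genes lower in conventional microglia included RNAs of other cell types. Kif5a stood at 169, 144 and 77.6 CPM against 15.8 and 14.3 (-3.04 ± 0.47, adjusted p = 2e-05), and Sparcl1 and Cpe, which astrocytes and neurons make, at 668, 513 and 268 against 162 and 105 (-1.83 ± 0.27, adjusted p = 9.7e-06) and 430, 405 and 226 against 86.9 and 66.6 (-2.13 ± 0.31, adjusted p = 4.8e-06). All 3 genes were lower in each conventional library. The summed level of the astrocyte markers in microglia was 1570, 1236 and 804 against 782 and 514, and that of the neuron markers, of which 10 to 13 of 14 were present, 238, 369 and 247 against 964 and 357. The part of RNA from other cells in these differences was not tested.

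Early factors were detected in nearly every conventional microglial cell. With each cell thinned to 600 UMIs, Act-Seq microglia had a UMI for 0.716, 0.803 and 1.00 immediate early factors on average and conventional ones for 8.92 and 7.72. At least 3 factors were seen in 0.515%, 3.95% and 9.73% of microglia under Act-Seq and in 99.4% and 98.4% under the conventional procedure. Chemokines and cytokines were seen at 0.778, 0.809 and 0.850 genes per cell against 3.39 and 2.13. Without thinning, Ccl3 was detected in 1.03%, 1.32% and 1.77% of microglia against 52.2% and 36.4%, at a median depth of 1112 to 1500 UMIs per cell. In conventional astrocytes, which should lack Ccl3, it was detected in 0.246% and 0.394% of cells at median depths of 1266 and 1337.5 UMIs, and in conventional neurons in 2.07% and 1.1% at 2109 and 1756 UMIs. The chemokine was thus found in a subset of the microglia in which Egr1 was detected in 99.4% and 99.2% of cells.

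**Figure D3:**
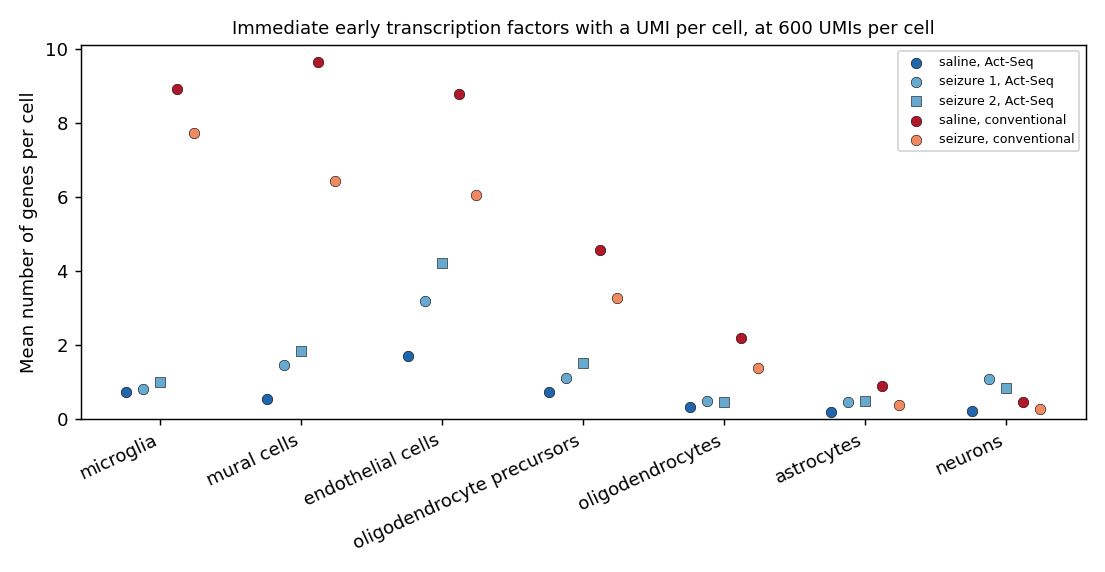
Mean number of immediate early factors with at least 1 UMI per cell, with every cell thinned to 600 UMIs (y axis), in 7 classes and 5 libraries. Conventional microglia (8.92 and 7.72) and mural cells (9.65 and 6.42) stood highest, whereas neurons stood at 0.455 and 0.270 in the conventional libraries and at 0.207, 1.08 and 0.826 in the Act-Seq ones.

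In oligodendrocytes the immediate early factors summed to 545, 822 and 768 CPM under Act-Seq and to 5636 and 3499 under the conventional procedure. Of 7084 genes tested, 79 differed (1.12%), 24 higher in the conventional libraries (0.339%) and 55 lower (0.776%). Without the seizure 2 Act-Seq library the count was 146. Of 12 immediate early factors that passed the filter, 9 were higher and 0 lower, with a median log2 difference of 5.15. As in microglia, a factor could pass through the conventional libraries alone, so this count describes the list and is no test of it. Fos stood at 0, 15.4 and 12.8 CPM against 1433 and 655 (7.13 ± 0.42, adjusted p = 7.2e-09), and Egr1 at 6.57, 49.3 and 3.20 against 784 and 529 (5.30 ± 0.41, adjusted p = 1.3e-07). Egr2 had 0 UMIs in Act-Seq oligodendrocytes and 45 in conventional ones, at least 14.0-fold higher when the floor is set to 3 UMIs over the Act-Seq libraries. Both conventional libraries lay above all Act-Seq libraries for 9 of the 12 factors, and for 7.78% of all genes tested. Of 11 feedback genes tested in oligodendrocytes, 1 was higher.

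Of 10 myelin genes, the defining transcripts of these cells, 0 passed in either direction. Mbp, which compacts the myelin sheath, stood at 9423, 10328 and 11166 CPM against 11005 and 11225 (0.23 ± 0.13, adjusted p = 0.68). Nuclear noncoding RNAs split, with 3 of 7 higher (Malat1, Meg3 and Snhg11) and Neat1 lower at 675, 757 and 778 against 259 and 264 (-1.38 ± 0.17, adjusted p = 6.7e-05). Of 9 dendritic and synaptic mRNAs tested in oligodendrocytes, 4 were lower (median -1.10), and 7 lay lower in both conventional libraries than in all Act-Seq ones, as did 17.1% of all genes tested. Map2, a microtubule protein of dendrites, stood at 241, 311 and 205 against 49.8 and 36.8 (-2.44 ± 0.26, adjusted p = 1.1e-05), and Camk2a at 57.5, 145 and 73.6 against 5.86 and 12.3 (-3.08 ± 0.43, adjusted p = 0.00029). The count of these was 1 with the highest doublet scores removed and 1 with cells thinned. The astrocyte markers in oligodendrocytes summed to 1852, 2195 and 2285 under Act-Seq and to 755 and 454 under the conventional procedure, and their part in the result was not tested.

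In oligodendrocyte precursors most of the genes that differed were immediate early factors. Of 5628 genes tested, 13 differed (0.231%), 10 higher (0.178%) and 3 lower (0.0533%), and 9 of the 12 immediate early factors that passed the filter were among the 10 (median log2 2.53). Because a factor could pass through the conventional libraries alone, this count describes the list and is no test of it. In 10 of the 12 both conventional libraries lay above all Act-Seq ones, against 8.99% of all genes tested. The count of differing genes was 2 without the saline Act-Seq library and 25 without the seizure 2 library, and 6 with DESeq2, and that of early factors was 2 of 14 without the saline Act-Seq library and 5 with DESeq2. Fos stood at 5.06, 95.7 and 126 CPM against 4218 and 2204 (5.44 ± 0.34, adjusted p = 5.3e-15), and Fosb at 0, 10.6 and 29.7 against 1583 and 641 (6.38 ± 0.38, adjusted p = 2.2e-15). Klf4, a factor of the early response, had 0 UMIs under Act-Seq and 61 under the conventional procedure, at least 14.7-fold higher than the floor. Egr1 was already high after seizure under Act-Seq, at 15.2, 649 and 1284 against 2750 and 1710 (2.44 ± 0.47, adjusted p = 0.0044). The defining markers Pdgfra (2210, 2324 and 2300 against 2264 and 2156) and Cspg4 (723, 808 and 913 against 900 and 858) differed by -0.02 ± 0.17 (adjusted p = 0.99) and 0.16 ± 0.18 (adjusted p = 0.96). At least 3 early factors were seen in 1.19%, 11.2% and 19.7% of precursors thinned to 600 UMIs and in 84.6% and 64.9% under the conventional procedure.

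Endothelial cells had the highest summed level of immediate early factors among the 7 classes under Act-Seq. Of 4365 genes tested, 11 differed (0.252%), 10 higher (0.229%) and 1 lower (0.0229%), and 5 of 19 immediate early factors were higher (median log2 1.66). The summed level of these factors was 3482, 6948 and 9298 CPM under Act-Seq and 41864 and 20070 under the conventional procedure. Junb stood at 62.3, 157 and 220 against 3639 and 2089 (4.54 ± 0.47, adjusted p = 0.001) and Ier2 at 223, 244 and 356 against 2862 and 1742 (3.15 ± 0.33, adjusted p = 0.001). Fos stood at 0, 92.9 and 388 against 9147 and 4338 (6.21 ± 1.04, adjusted p = 0.031). All 3 were higher in both conventional libraries, as were 12 of the 19 factors and 8% of all genes tested. Others overlapped: Apold1, a vascular early gene, stood at 265, 1969 and 3648 against 2094 and 1069 (adjusted p = 0.98), and Nr4a1 at 5.19, 372 and 367 against 667 and 259 (adjusted p = 0.93).

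The endothelial count rests on single libraries. edgeR called 0 genes without the seizure 2 Act-Seq library, where 279 had an unadjusted p under 0.05, and 24, 33, 21 and 65 without the saline Act-Seq, saline conventional, seizure 1 and seizure conventional libraries. Of the early factors, 3 were called with DESeq2, 0 without seizure 2 and 15 of 20 without the seizure conventional library. Snhg11 and Scg2, transcripts of neurons, were among the 10 genes higher in conventional endothelial cells, with Snhg11 at 31.1, 17.4 and 31.4 against 234 and 441 (3.76 ± 0.38, adjusted p = 0.001). The neuron markers in this class, 8 to 13 of 14 present, summed to 701, 534 and 797 CPM under Act-Seq and to 1843 and 2117 under the conventional procedure. Their part in these differences was not tested.

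Mural cells were few, with 44, 15 and 13 cells under Act-Seq and 20 and 19 under the conventional procedure, and 471 genes could be tested. All 16 genes that differed were higher in the conventional libraries (3.4%), and 8 of 13 early factors and 4 of 8 feedback genes that passed the filter were among them (medians 4.07 and 2.67). Here too a gene could pass through the conventional libraries alone, so these counts describe the lists and are no test of them. Fos had 3 UMIs under Act-Seq and 598 under the conventional procedure, a ratio of 384 (131 to 1868), and Fosb 0 against 111, at least 71.3-fold higher than the floor. Cebpb, a factor of the acute phase response, stood at 70.8, 90.6 and 73.8 CPM against 2489 and 1888 (4.82 ± 0.46, adjusted p = 0.00029). Rasl11a, a small GTPase-like protein, stood at 56.7, 181 and 148 against 1365 and 1292 (3.69 ± 0.50, adjusted p = 0.0014). All of these were higher without overlap, as were 11 of the 13 early factors and 12.5% of all genes tested. The count was 27 without the seizure 1 library, and edgeR called 0 genes without the seizure 2 library, where 36 had an unadjusted p under 0.05.

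Some genes were higher in the conventional libraries in several classes. Ier2 and Junb were higher in 6 of 6 non-neuronal classes, Egr1 and Fos in 5, and Btg2, Fosb, Jun, Jund and Snhg11 in 4, whereas 190 genes were higher in 1 class. Of the genes higher in oligodendrocytes, 18 of 24 were also higher in microglia (75% of the oligodendrocyte genes and 13% of the 138 microglial ones). The like overlap was 9 of 10 for precursors (90% and 6.52%), 8 of 10 for endothelial cells (80% and 5.80%) and 12 of 16 for mural cells (75% and 8.70%). For astrocytes it was 8 of 77 (10.4% and 5.80%). Genes that differed in 1 class and not in another are not shown to differ between classes, since the difference between classes was not tested.

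**Figure D4:**
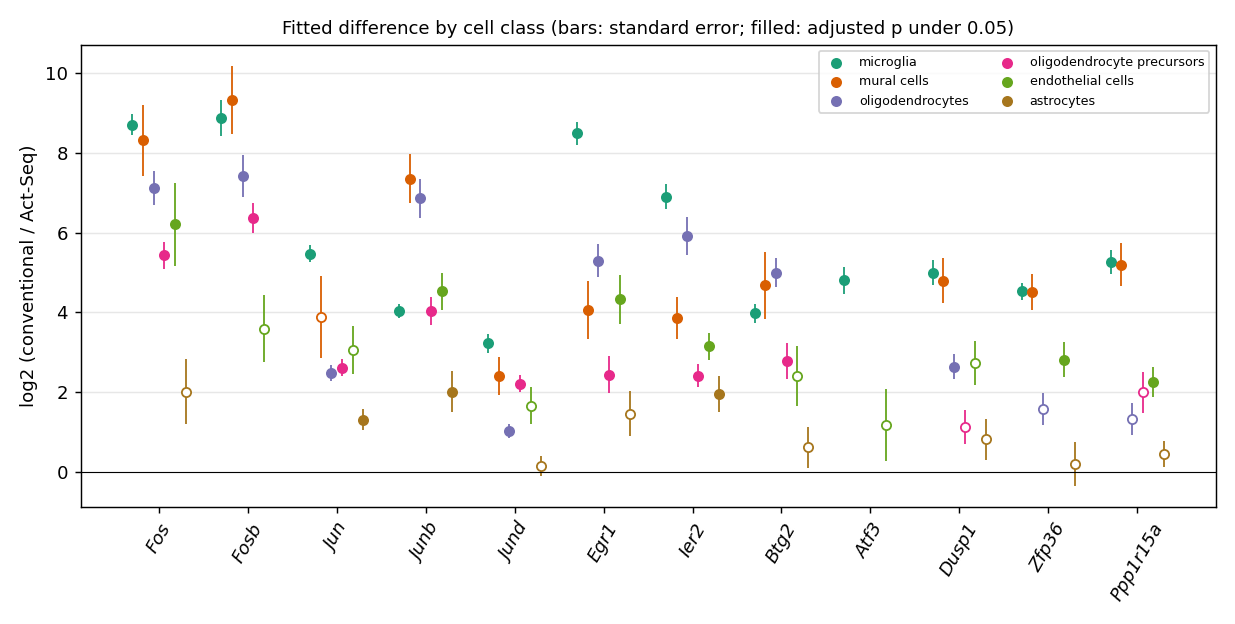
Fitted log2 difference (conventional minus Act-Seq, y axis) with its standard error for 12 early and feedback genes in 6 classes, where filled points had an edgeR adjusted p under 0.05. The fitted values of genes with at most 3 Act-Seq UMIs, such as Fosb in microglia, depend on the prior count and are not bounds. Fos stood at 8.72 in microglia, 7.13 in oligodendrocytes and 2.01 in astrocytes, where it did not pass.

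In astrocytes most of the genes that differed were lower in the conventional libraries. Of 8743 genes tested, 377 differed (4.31%), 77 higher in the conventional libraries (0.881%) and 300 lower (3.43%). The count moved with single libraries, to 30 without the saline Act-Seq, 75 without the saline conventional, 617 without the seizure 2 and 178 without the seizure conventional library, and to 137 with DESeq2. The class joins a cluster led by F3 (467, 343 and 276 cells under Act-Seq, 405 and 253 under the conventional procedure) and a deeper one led by Aldoc (median 5112 UMIs), which held 51, 44 and 37 Act-Seq cells but 2 and 1 conventional ones. With the first cluster alone, an alternative chosen after seeing the data, the count was 30. Of 12 early factors that passed the filter, 3 were higher (Ier2, Jun and Junb), with a median log2 difference of 0.89, and 0 were called with DESeq2, without the saline Act-Seq library or without the saline conventional library, but 5 of 10, 6 of 9 and 7 of 15 without the seizure 1, seizure 2 and seizure conventional libraries. Jun stood at 54.9, 82.3 and 51.1 CPM against 204 and 98.3 (1.31 ± 0.26, adjusted p = 0.003). Fos stood at 10.1, 289 and 251 against 1044 and 134 (2.01 ± 0.82, adjusted p = 0.21), so that its values overlapped and the seizure conventional library lay below both seizure Act-Seq libraries.

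Of 8 nuclear long noncoding RNAs tested in astrocytes, 2 were higher (Malat1 and Snhg11) and 2 lower (Gas5 and Neat1), with a median log2 difference of 0.16. Malat1 stood at 13173, 18213 and 27752 CPM against 45966 and 36371 (1.23 ± 0.16, adjusted p = 3.6e-05). The small nuclear RNA Rn7sk, which holds back the elongation of transcripts, stood at 5.49, 3.86 and 1.55 against 57.1 and 43.2 (3.64 ± 0.48, adjusted p = 3e-05). Malat1 and Rn7sk lay above all Act-Seq values, whereas Gas5 (594, 573 and 519 against 306 and 278) and Neat1 (315, 269 and 358 against 183 and 185) were lower, by -0.90 ± 0.15 (adjusted p = 0.00034) and -0.70 ± 0.17 (adjusted p = 0.018). Of 14 glucocorticoid response genes, 6 were higher (Cdkn1a, Klf9, Mfsd2a, Mt1, Mt2 and Tsc22d3) and 0 lower, with a median of 0.48. Mt1 stood at 8138, 10674 and 9980 against 11186 and 13198 (0.47 ± 0.08, adjusted p = 0.00042), opposite in direction to its level over all cells. Of the list, 0 were called without the saline Act-Seq library, without the saline conventional library or with no treatment term, and 2 without the seizure conventional library or with DESeq2. Without the saline Act-Seq library Malat1 and Neat1 were not called either, and Neat1 also lost its call without the saline conventional or the seizure conventional library.

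Dendritic and synaptic mRNAs, which neurons make, were lower in conventional astrocytes. Of 14 dendritic and synaptic mRNAs tested, 11 were lower and 0 higher, with a median log2 difference of -1.51. Map2 stood at 1002, 1123 and 1139 CPM against 353 and 412 (-1.41 ± 0.13, adjusted p = 1.7e-07), Camk2a at 361, 467 and 291 against 36.4 and 64.7 (-2.83 ± 0.25, adjusted p = 9.5e-08) and Kif5a at 969, 977 and 1140 against 137 and 204 (-2.51 ± 0.16, adjusted p = 6.6e-10). All were lower in each conventional library, as were 13 of the 14 mRNAs and 20.5% of all genes tested. Of 6 myelin genes tested, 2 were lower (Mbp and Mobp) and 0 higher, with a median of -0.18, and 2 lay above all Act-Seq values in both conventional libraries. Mbp stood at 528, 393 and 420 against 185 and 127 (-1.52 ± 0.16, adjusted p = 1.7e-06). Snhg11, a noncoding RNA of neurons, was instead higher, at 19.2, 41.1 and 52.7 against 109 and 86.3. The 14 neuron markers in astrocytes summed to 1181, 1256 and 1306 against 744 and 710, and the oligodendrocyte markers to 1114, 805 and 804 against 673 and 655, whereas the astrocyte markers summed to 38933, 37852 and 38310 against 43217 and 44908. The part of RNA from other cells in these differences was not tested. The count of lower dendritic and synaptic mRNAs was 3 without the saline Act-Seq library, 3 of 15 without the saline conventional library, 7 of 12 without seizure 1, 13 of 14 without seizure 2 and 5 of 15 without the seizure conventional library. Kif5a, Camk2a and Map2 lead the Kif5a-led cluster, so their level in astrocytes and the border between the clusters cannot be told apart. In the largest astrocyte cluster alone the count was 2 of 9, with a median of -0.48.

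Neurons were compared across different clusters. Most seizure Act-Seq cells of the authors' neuron table lay in the Kif5a-led cluster and are not part of this class. Conventional neurons lay in a cluster led by Penk (247 and 212 cells) and one led by Vsnl1 (235 and 51 cells), whereas most Act-Seq neurons lay in a cluster led by Miat, a nuclear noncoding RNA (12, 30 and 16 cells). Of 1733 genes tested, 358 differed (20.7%), 116 higher (6.69%) and 242 lower (14%). The count was 577, 636, 117 and 58 without the saline Act-Seq, saline conventional, seizure 1 and seizure conventional libraries, and the Act-Seq side rests on 29, 38 and 23 cells. Genes that lead these clusters, such as Leng8 and Miat, are not given as results. Among the other genes, Gap43, a protein of growing axons, stood at 611, 339 and 419 CPM against 2494 and 1879 (2.0 ± 0.40, adjusted p = 3.3e-05). Slc17a6, the vesicular transporter that marks glutamate neurons, stood at 47.0, 203 and 307 against 640 and 853 (2.15 ± 0.46, adjusted p = 0.00011). Nrgn, which binds calmodulin at synapses, stood at 360, 407 and 279 against 1456 and 1011 (1.54 ± 0.40, adjusted p = 0.0022). Gap43, Slc17a6 and Nrgn were each higher without overlap, as were 27.6% of all genes tested. Slc17a7, another vesicular glutamate transporter, went the other way, at 15.7, 102 and 55.9 against 8.88 and 6.65, on 1, 6 and 2 Act-Seq UMIs. In the Penk-led cluster, which both methods share, Slc17a6 stood at 0, 445 and 961 against 1150 and 1130. In the Miat-led cluster it stood at 0, 71.2 and 0 under Act-Seq.

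Among the genes lower in conventional neurons, the noncoding RNA Mirg stood at 141, 339 and 363 CPM against 59.0 and 78.5 (-2.01 ± 0.53, adjusted p = 0.0026). Per1, a clock gene that glucocorticoids and calcium also induce, stood at 31.3, 271 and 307 against 19.8 and 17.3 (-3.07 ± 0.97, adjusted p = 0.014). Sparc, a matrix protein that astrocytes and vessels make, stood at 674, 424 and 922 against 39.2 and 25.3 (-4.57 ± 0.47, adjusted p = 4e-19). All 3 were lower in each conventional library, as were 21.3% of all genes tested. The astrocyte markers in neurons summed to 1614, 1389 and 1789 CPM against 626 and 474, and their part in the value of Sparc was not tested. The genes lower in conventional neurons had a median of 18 exons, against 10 over the genes tested, and 3.96% of them had at most 4 exons, against 16.0%. Malat1 in neurons stood at 14290, 37921 and 56821 against 9371 and 10203 (-1.69 ± 0.75, adjusted p = 0.089), while in astrocytes, oligodendrocytes and microglia it was higher under the conventional procedure. Within the Penk-led cluster, which both methods share, Malat1 overlapped, at 10990, 14822 and 30308 against 17531 and 15136. It stood at 46045, 46798 and 69297 in the Miat-led cluster under Act-Seq. In the Vsnl1-led cluster it stood at 6612 and 3946 under the conventional procedure. Of 32 genes for oxidative phosphorylation tested in neurons, 6 were higher (median 0.67 against 0.15 over all genes tested), but this count was 20 of 35, 20 of 31, 0, 1 and 0 with the saline Act-Seq, saline conventional, seizure 1, seizure 2 and seizure conventional library left out in turn, and 0 with DESeq2.

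Of the immediate early factors, 3 passed the filter in neurons and 0 differed. Egr1 stood at 141, 322 and 279 CPM against 165 and 165 (-0.65 ± 0.48, adjusted p = 0.31). Fos was too low to be tested, at 0, 119 and 168 against 125 and 85.1, and Npas4, a factor specific to neuronal activity, stood at 15.7, 169 and 83.8 against 21.4 and 17.3. The highest values of Fos, Egr1 and Npas4 in these neurons were those of seizure Act-Seq libraries. They rest on 7 and 6 UMIs of Fos and 10 and 3 of Npas4 in seizure 1 and 2. The Ndnf-led cluster, which the authors called neurons in 13 of 14 cells, is not part of this class. There Fos stood at 40.5 in the saline and 39.2 in the seizure 1 Act-Seq library (11 and 12 cells). In the seizure conventional library it stood at 1326 (10 cells). At least 1 UMI of Fos was found in 0 of 29 neurons of the saline Act-Seq library, which allows a share of cells with such a UMI of up to 10.3% and sets no limit on cells that express the gene, in 15.8% and 13% of neurons of the seizure Act-Seq libraries, and in 17.2% and 6.84% of conventional ones. The median depth of these neurons was 2109 and 1756 UMIs per cell in the conventional libraries and 1260 to 1317 under Act-Seq, so the shares of cells are not matched for depth. Of 4 effectors of neuronal activity tested, Bdnf, a neurotrophin, and Nrn1, a protein that promotes neurite growth, were higher, with Bdnf at 31.3, 136 and 168 against 267 and 323 (1.46 ± 0.52, adjusted p = 0.031). Both lost their call without the saline Act-Seq, the saline conventional or the seizure 1 library, and Gap43 without the last of these.

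The difference between seizure and saline was compared between the methods by an interaction term. The fit leaves 1 residual degree of freedom, its spread between libraries comes from the pair of seizure Act-Seq libraries and the shrinkage across genes, and the conventional difference is 1 library against 1. In the summed libraries 4 of 14194 genes tested had such an interaction (0.0282%): Fos, Fosb and Nr4a1, with a smaller log2 difference under the conventional procedure (0.0211%), and Pf4 with a larger one. Fos over all cells stood at 10.4 CPM in the saline and 169 and 235 in the seizure Act-Seq libraries, and at 1770 and 1138 in the saline and seizure conventional ones (interaction -4.95, edgeR adjusted p = 0.017). Its order between saline and seizure thus turned. DESeq2 gave 8 genes with an interaction.

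In astrocytes 13 of 9488 genes had an interaction (0.137%, 3 with DESeq2). Fos was 10.1 CPM in the saline and 289 and 251 in the seizure Act-Seq libraries, but 1044 in the saline and 134 in the seizure conventional library (interaction -7.73, edgeR adjusted p = 2.3e-63). Junb went from 6.41 to 51.4 and 75.9 under Act-Seq and from 222 to 62.3 under the conventional procedure (-5.13, adjusted p = 3.6e-15). Both genes were higher after seizure under Act-Seq and lower after it under the conventional procedure.

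In endothelial cells 20 of 5413 genes had an interaction (0.369%, 4 with DESeq2), 19 of them with a smaller value under the conventional procedure (0.351%). Nr4a1 stood at 5.19 in the saline and 372 and 367 in the seizure Act-Seq libraries, and at 667 and 259 in the saline and seizure conventional ones (-7.39, adjusted p = 5.9e-06). Apold1 stood at 265, 1969 and 3648 against 2094 and 1069 (-4.43, adjusted p = 9.8e-06), and Atf3 at 15.6, 145 and 283 against 497 and 77.2 (-6.38, adjusted p = 1.5e-05). In all 3 genes the order of saline and seizure turned between the methods.

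In microglia 9 of 5664 genes had an interaction (0.159%, 1 with DESeq2), 8 of them smaller under the conventional procedure (0.141%). Ccl4 stood at 33.1, 149 and 28.2 against 3820 and 1037 (-3.48, adjusted p = 1.8e-07) and Nfkbia at 264, 1062 and 1298 against 6388 and 5568 (-2.42, adjusted p = 1.6e-11). Fos in microglia had an interaction of 0.16 (adjusted p = 1): it was at or below 13.2 under Act-Seq in saline and seizure libraries alike. Oligodendrocytes had 6 of 7958 genes (0.0754%, 0 with DESeq2, 17 at an unadjusted p under 0.05) and neurons 4 of 2614 (0.153%, 0 with DESeq2, 21 at an unadjusted p under 0.05).

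**Figure D5:**
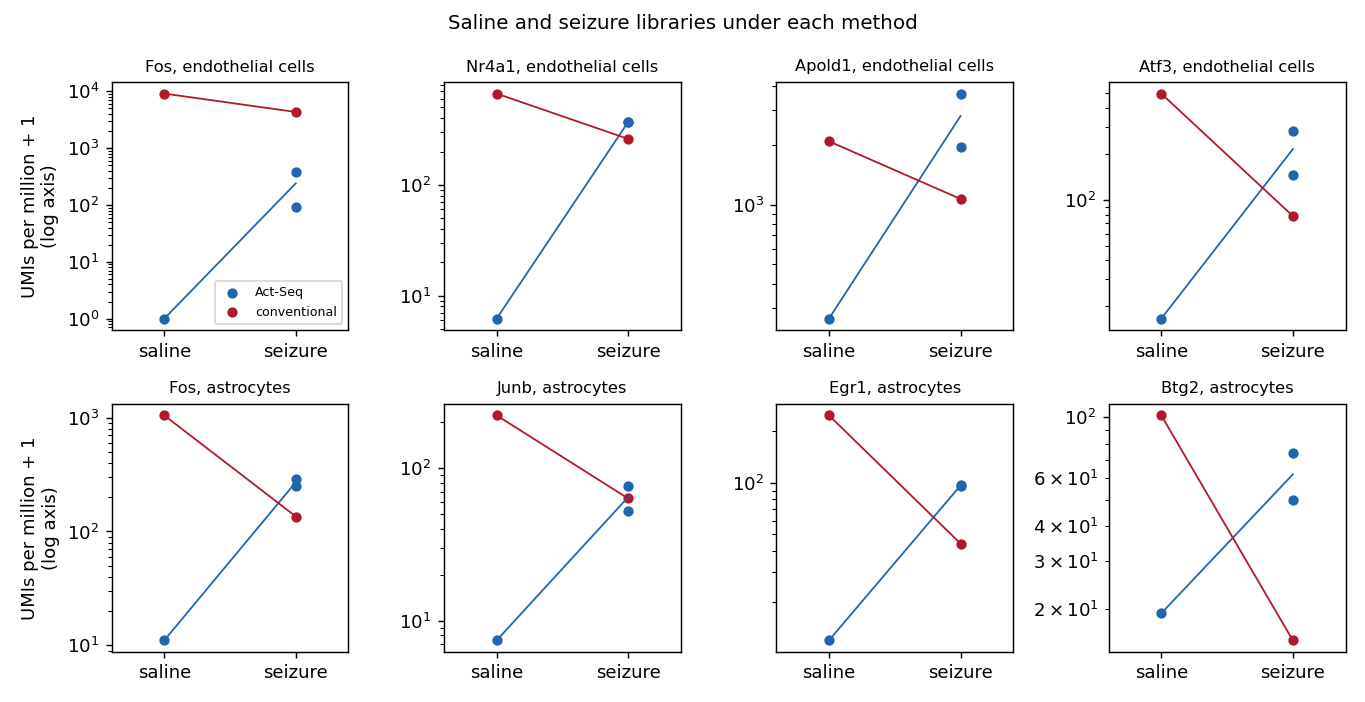
Level of 4 genes in endothelial cells and 4 in astrocytes, in CPM plus 1 (log y axis), in saline and seizure libraries under each method; lines join the saline value to the mean of the seizure libraries. Fos in astrocytes stood at 10.1 in the saline and 289 and 251 in the seizure Act-Seq libraries, and at 1044 and 134 in the saline and seizure conventional ones.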

How the data were processed

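The deposited Drop-seq tables hold raw UMI counts (whole numbers, not normalized) for each gene in each cell. Per the submitters' processing notes, bcl2fastq 2.17.1.14 and STAR 2.5.0a were used with mm10. The sources used here do not state the cell filters or any use of strand in counting, and reads of overlapping or antisense genes cannot be told apart. The lowest number of genes per cell was 551 or 552 in every library of the dissociation table. Cells of the seizure Act-Seq libraries that are only in the larger table had at most 551. The dissociation table holds 5 libraries of 1123 to 2010 cells and 2102364 to 4309887 UMIs.

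Clusters were made from counts scaled to 10000 per cell with 30 principal components of 2000 variable genes and 15 neighbours (scanpy 1.11.5, Leiden resolution 0.8 by leidenalg 0.10.2). The lists of immediate early, neuronal activity, feedback, chemokine and cytokine, and heat shock genes were left out of the clustering. So were those of unfolded protein and amino acid response, glucocorticoid, hypoxia and glycolysis, p53 and cell death, and interferon genes. Classes were named from marker lists of 19 classes. Scrublet called 0.904% of cells doublets, and none was removed. Counts were summed per library and class (at least 10 cells) and tested with edgeR 4.0.16 in R 4.3.3 (quasi-likelihood test, TMM, filterByExpr, terms for treatment and method, Benjamini-Hochberg threshold 0.05), which leaves 2 residual degrees of freedom, or 1 with the interaction. The scripts were tested on simulated data. DESeq2 1.42.0, other filters and designs, thinning to 600 UMIs, leaving out the cells in the top 5% by doublet score, other class assignments, and leaving out each library were tried. Named genes were up to 10 per direction and class by fitted difference, with at least 20 CPM in the higher group and no overlap between methods, and members of 16 lists (315 genes). The libraries, members, lists and rules were chosen with earlier results of these data known. Intervals and the floor of 3 UMIs cover counting error only.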

Additional observations from a re-analysis of the deposited data

Results flagged for a closer look

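The difference between seizure and saline libraries, on the log2 scale, was smaller under conventional dissociation than under Act-Seq by edgeR's interaction test (adjusted p under 0.05) for the following genes. Each value is the conventional seizure difference minus the Act-Seq one. It rests on 1 library for each treatment under the conventional procedure, and on a spread with 1 residual degree of freedom.

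In the summed libraries Fosb (-5.62), Fos (-4.95) and Nr4a1 (-3.58) had such a difference. In astrocytes the early factors Fosb (-9.67), Fos (-7.73), Egr1 (-5.66), Junb (-5.13) and Btg2 (-4.54) had it, as did the feedback phosphatases Dusp1 (-4.39) and Dusp6 (-2.87), the matrix protein Cyr61 (-2.74), the noncoding RNAs Meg3 (-1.67) and Malat1 (-1.19) and the chaperone Hspa5 (-1.21). In microglia the values were -4.33 for Nr4a1, -3.48 for Ccl4, -3.20 for Dusp1, -2.92 for Meg3, -2.42 for Nfkbia, -1.96 for Malat1, -1.81 for Btg2 and -1.79 for Tsc22d3.

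In oligodendrocytes Fos (-6.99), Cdkn1a (-4.58), Hbb-bs (-4.35) and Malat1 (-1.73) had it. Hbb-bs is a transcript of red blood cells, and its near-identical copy may share its reads. In endothelial cells the early factors Fos (-9.40), Nr4a1 (-7.39), Atf3 (-6.38), Fosb (-5.94), Nr4a2 (-4.84), Btg2 (-4.21), Klf4 (-3.42), Egr1 (-2.97) and Jun (-2.97) had it, with Apold1 (-4.43), Cyr61 (-4.71), Dusp1 (-3.09), Cdkn1a (-2.87), Malat1 (-1.96) and the haemoglobin gene Hbb-bt (-9.52). Erythrocyte markers in endothelial cells summed to 239 CPM in the saline Act-Seq library, 10869 and 105 in the seizure Act-Seq libraries and 16711 and 20704 in the conventional ones, and their part in the haemoglobin values was not tested.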

How the results depend on the processing

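No paired analysis was possible because the groups compared share fewer than 2 replicate numbers. With DESeq2, 75 genes differed in microglia, 137 in astrocytes, 42 in oligodendrocytes and 6 in precursors, and the interaction was called for 8 genes in the summed libraries, 1 in microglia, 3 in astrocytes, 4 in endothelial cells and 0 in oligodendrocytes and neurons. With no filter on low counts the counts were 134 in oligodendrocytes, 20 in precursors, 71 in endothelial cells, 27 in mural cells, and for the interaction 12 in the summed libraries and 1 in neurons. With cells thinned to 600 UMIs they were 100 in microglia, 57 in astrocytes, 25 in oligodendrocytes, 7 in endothelial cells and 160 in neurons, and the difference in median genes per cell became -13. With naive Act-Seq libraries added as further controls they were 193 in astrocytes, 8 in precursors, 42 in endothelial cells and 968 in neurons. The naive cells carry the authors' classes, and the naive neurons are those of the authors' neuron table. These cell sets are thus unlike the marker-named classes, most of all in neurons. With cells assigned one by one the counts were 1658 in astrocytes, 30 in precursors, 6 in endothelial cells and 2096 in neurons. With the highest doublet scores removed they were 204 in astrocytes, 29 in oligodendrocytes and 18 in endothelial cells, and mural cells could not be fitted. With no treatment term endothelial cells had 21. The largest astrocyte cluster alone, chosen after seeing the data, had 30, and there Snap25 turned to 0.54.

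With each library left out in turn, the counts ranged from 759 to 2861 in the summed libraries, 92 to 198 in microglia, 30 to 617 in astrocytes, 54 to 146 in oligodendrocytes, 2 to 25 in precursors, 0 to 65 in endothelial cells, 0 to 27 in mural cells and 58 to 636 in neurons. Differences in share, conventional minus Act-Seq in percentage points, ranged from -0.0347 to 0.720 for microglia, -6.08 to -3.04 for astrocytes, 7.19 to 9.37 for oligodendrocytes, 8.04 to 9.33 for precursors, 1.21 to 1.81 for endothelial cells, -0.400 to 0.273 for mural cells and 18.7 to 23.8 for neurons. The microglial share turned without seizure Act-Seq 1 (-0.0347), and the mural share without the saline Act-Seq (0.273) or saline conventional library (0.0863). Median UMIs per cell differed by 44.7 to 209.7 and genes by -7.83 (without the seizure conventional library) to 70.2. Apold1 in endothelial cells ranged from -1.30 (without the saline Act-Seq library) to 3.12 (without the seizure conventional one), with -1.29 without the saline conventional library.

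With the Kif5a-led cells left out of the total, an alternative chosen after seeing the data, the share difference turned to -4.36 for microglia and -0.880 for endothelial cells. With the Kif5a-led and Ddn-led clusters counted as neurons, also chosen then, it turned to -13.6 for neurons. At Leiden resolution 1.5 it turned to 0.628 for mural cells. The causes were not tested. Of 2794 values of 237 named genes under these settings, 2305 kept direction and side of the threshold, 405 kept the direction only, 82 newly passed and 2 turned. Cell number limits the Act-Seq side of the comparison in neurons (90 cells) and mural cells.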
